A study of Sus scrofa with 28 samples.

Results

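The pig genes whose symbols start with RAB and a digit were followed through 28 lists of open chromatin from liver. By this symbol rule, 68 of the 16315 protein-coding RefSeq genes with a symbol (build Sscrofa11.1) were members. Of these, 59 encode RAB GTPases. The other 9 encode partners that carry a RAB symbol, namely RAB3GAP1, RAB3GAP2, RAB3IP, RAB3IL1 and RAB11FIP1 to RAB11FIP5, and they are counted apart where stated. RAB GTPases are small membrane switches: exchange factors load them with GTP, activating proteins make them hydrolyse it, and in the GTP state they recruit effectors that tether, move and fuse vesicles. RAB GTPases mark particular compartments, some of which they share. The family as a whole maps the route of cargo through the ER, Golgi, endosomes, lysosomes and plasma membrane. In hepatocytes these routes carry secreted plasma proteins and lipoproteins out of the cell and endocytosed receptors back to its surface.

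The liver was taken from pigs of a native Polish breed, Zlotnicka White, all female, at 180 days of age and kept under shared feeding and housing. ATAC-seq inserts sequencing adapters into open chromatin with a transposase, and the labels describe tissue that was digested to a cell suspension and frozen slowly before library preparation. The libraries form 4 groups of 7, high fat 600, low fat 600, high fat 200 and low fat 200. The labels state neither what 600 and 200 mean nor in which tissue the fat was measured, and the tag that holds the fat group is named shear force. Each of 14 title numbers occurs once among the 600 and once among the 200 libraries, but the labels do not name animals, so separate animals per library are not established and p-values measure the spread between these libraries. The 600 and 200 libraries also carry different set numbers in their titles, so label and set cannot be told apart.

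The deposited data are a peak list per library, not read counts, so sequencing depth is unknown. The lists differed widely in length, between 39 and 6453 peaks in the 600 libraries and between 196 and 17652 in the 200 libraries. A gene was called listed in a library when the centre of 1 of its peaks lay within 1000 bp of either annotated end of the gene. The gene table used here gives no strand, so a gene end can be the start or the end of transcription. Markers of hepatocytes were listed most among the liver cell types. In at least 1 library, 11 of 14 hepatocyte markers were listed (HPX in 11 libraries, FOXA1 in 9, TTR and FGG in 8 and ALB in 7), against 2 of 10 markers of Kupffer cells and macrophages, 2 of 7 of lymphocytes, 0 of 10 of endothelial and stellate cells and 0 of 4 of cholangiocytes. CD14, a macrophage marker, was listed in 6 libraries. In such bulk lists, fewer cells of a type and a less open site per cell cannot be told apart.

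RAB genes were listed more often than genes in general. Of the 68, 44 (64.7%) had a gene-end peak in at least 1 library, against 52.9% of all genes with a symbol. The share in at least 3 libraries was 47.1% for RAB genes (32 genes), against 33.4%. In 10 or more libraries, 18 RAB genes (26.5%) were listed, against 8.98% of all genes. The 59 GTPase genes alone gave 64.4% in at least 1 library and 27.1% in 10 or more. RAB genes had a median of 2 libraries and a mean of 4.56, and all genes a median of 1 and a mean of 2.72. No RAB gene was listed in more than 17 libraries, while the most recurrent gene of all was listed in 23. The median gene length was 29145 bp for RAB genes and 25592 bp for all genes. These shares describe a list chosen with earlier results of these data in view and carry no test.

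The share in 10 or more libraries depends on which libraries are counted. It fell to 16.2% when both libraries of high fat replicate 7, of low fat replicate 1 or of low fat replicate 7 were left out, with 4.96%, 5.01% and 5.04% of all genes. Among the 1000 strongest peaks by −log10 p of the 15 libraries that have as many, 30.9% of RAB genes and 15% of all genes were listed at least once, and 8.82% of RAB genes and 2.48% of all genes in 10 or more. A gene with a near neighbour can be listed through that neighbour's peak. Over genes with no other annotated gene end within 2000 bp, 19 of 37 RAB genes (51.4%) were listed at least once, against 46.1% of all such genes, and 18.9% in 10 or more, against 7.63%.

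**Figure D1:**
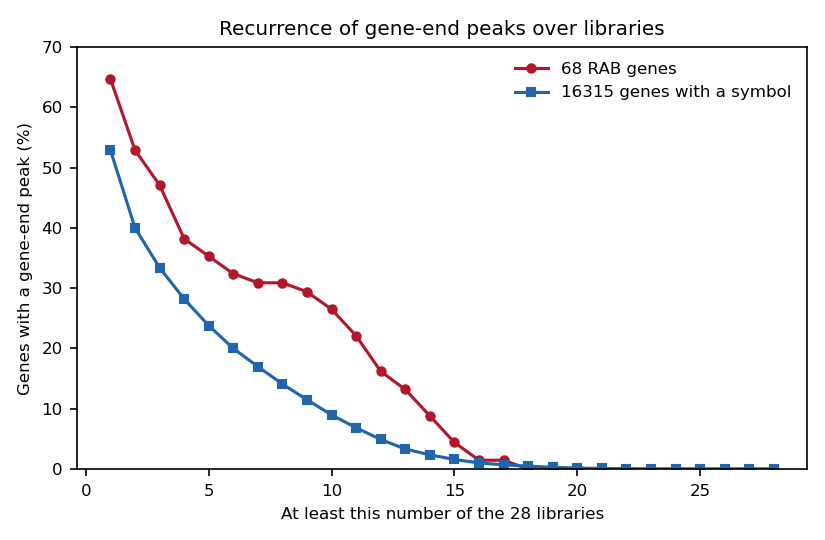
Percent of genes (vertical axis) with a gene-end peak in at least the number of libraries on the horizontal axis, for the 68 RAB genes (red circles) and for all 16315 genes with a symbol (blue squares). The RAB curve lies above the other up to 17 libraries, with 26.5% against 8.98% at 10 libraries, and is at 0 from 18 libraries on.

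The RAB genes of the endosome, which handle material taken up from outside the cell and send receptors back to its surface, held 12 listed members of 14, with a median of 3.5 libraries. RAB5B, one of the 3 RAB5 GTPases that fuse early endosomes, led the family with 17 libraries, 5 of high fat 600, 4 of low fat 600, 4 of high fat 200 and 4 of low fat 200. Its peaks lay on chromosome 5 between 21372579 and 21374320, at the lower-coordinate end of the gene, with −log10 p between 3.70 and 8.31 (median 5.63). RAB5B was also listed in the list of 142 peaks of high fat 600 replicate 5. RAB5A, a second RAB5 gene, was listed in 15 libraries, 2 of high fat 600, 3 of low fat 600, 4 of high fat 200 and 6 of low fat 200, on chromosome 13 between 6904611 and 6906467 with −log10 p of 3.30 to 8.27 (median 5.44). RAB5C, the remaining RAB5 gene, was listed in only 3 libraries.

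RAB4A, which drives fast recycling from early endosomes to the surface, was listed in 11 libraries (chromosome 14, 60528004 to 60529299, median −log10 p 4.52). RAB11B, a GTPase of the slow recycling route, was listed in 10 libraries (chromosome 2, 70894155 to 70896515, median 4.49), while its close relative RAB11A reached 3. RAB14, which acts between the trans-Golgi network and early endosomes, was also listed in 10 (chromosome 1, 261255996 to 261257502, median 4.36). RAB21, another early endosome GTPase, was listed in 9 libraries, RAB35, a recycling GTPase, in 4 and RAB4B in 3. RAB15 and RAB22A were listed in 1 library each. RAB25 and RAB31 were not listed. In all, 10 of the 14 endosomal genes were listed in at least 3 libraries and 5 in 10 or more.

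Of the genes of the secretory route from the ER through the Golgi, 9 of 15 were listed, 6 in 10 or more libraries, with a median of 3. RAB1A, which controls traffic from the ER to the Golgi, was listed in 15 libraries, 2 of high fat 600, 4 of low fat 600, 4 of high fat 200 and 5 of low fat 200. Its peaks lay on chromosome 3 between 76836419 and 76838101, with −log10 p from 3.32 to 9.16 (median 5.79). The second RAB1 gene, RAB1B, was listed in 1 library. Both genes for RAB2, a GTPase of the ER to Golgi intermediate and the Golgi, recurred. RAB2B was listed in 13 libraries (chromosome 7, 77698594 to 77699645, median −log10 p 5.07) and RAB2A in 12 (chromosome 4, 72881328 to 72882846, also median 5.07). RAB2A was present in the 141 peaks of low fat 600 replicate 3, where it was the only RAB gene listed.

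RAB30 (12 libraries, chromosome 9, 17221951 to 17223716), RAB43 (11 libraries, chromosome 13, 71595129 to 71596935) and RAB6A (11 libraries, chromosome 9, 8198300 to 8199886) all encode Golgi GTPases, RAB6A one of retrograde traffic. Their median −log10 p was 5.20 for RAB30, 4.52 for RAB43 and 4.20 for RAB6A. RAB18, found on lipid droplets and the ER, was listed in 9 libraries, 2 of high fat 600, 2 of low fat 600, 2 of high fat 200 and 3 of low fat 200. Its peaks had −log10 p between 3.85 and 6.94. RAB33A was listed in 3 libraries. RAB6B, RAB19, RAB34, RAB39A, RAB39B and RAB42 were not listed.

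Of 10 genes of late endosomes, lysosomes and autophagy, 5 were listed and 2 reached 10 libraries. RAB32, which acts on lysosome-related organelles, was listed in 13 libraries, 2 of high fat 600, 3 of low fat 600, 3 of high fat 200 and 5 of low fat 200. It had the highest value of the family, a −log10 p of 10.2 in high fat 200 replicate 1, and the widest region of these 18 genes (chromosome 1, 19096298 to 19098734). RAB33B, a GTPase of the Golgi and of autophagosome formation that is counted here and not with the Golgi genes, was listed in 11 libraries (chromosome 8, 87569270 to 87570999, median −log10 p 4.53). RAB9A, which returns receptors from late endosomes to the Golgi, was listed in 5 libraries. RAB7A, the GTPase that matures late endosomes and lysosomes, had a gene-end peak in only 2, high fat 200 replicates 1 and 7, with −log10 p of 4.62 and 4.12. RAB29 was listed in 2, and RAB7B, RAB9B, RAB24, RAB36 and RAB38 in none.

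Of 13 genes of secretion and exocytosis, 8 were listed and 3 reached 10 libraries. RAB8A, which delivers vesicles to the plasma membrane and the cilium, was listed in 14 libraries, 3 of high fat 600, 4 of low fat 600, 3 of high fat 200 and 4 of low fat 200 (chromosome 2, 61449902 to 61451348). Its −log10 p ranged from 3.41 to 8.62 (median 5.79). RAB3A, best known from synaptic vesicle release, was also listed in 14, 2 of high fat 600, 3 of low fat 600, 5 of high fat 200 and 4 of low fat 200 (chromosome 2, 59602477 to 59603697, −log10 p 3.22 to 7.80, median 4.57). RAB10, needed for insulin-driven delivery of glucose transporters in fat cells, was listed in 13 (chromosome 3, 112923490 to 112924983). RAB8B was listed in 4 libraries, RAB37 in 3, RAB12 in 2 and RAB3D and RAB26 in 1. RAB3B, RAB3C, RAB13 and both genes for RAB27, the GTPase of secretory granules, had no gene-end peak in any list.

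Among the 9 partners of RAB GTPases, 6 were listed. RAB11FIP2, an effector of RAB11, was listed in 14 libraries (chromosome 14, 128110447 to 128111896, median −log10 p 4.45) and RAB3IP, an exchange factor for RAB8, in 10 (chromosome 5, 34002497 to 34004173, median 5.11). RAB11FIP1, another effector of RAB11, was listed in 6 libraries, while RAB11FIP4, RAB11FIP5 and RAB3GAP2 were listed in 1. RAB11FIP3, RAB3GAP1 and RAB3IL1 were not. The remaining 7 GTPases, placed in no route above, had RAB28 at 8 libraries, RAB40C at 5, RAB20 at 3, RAB40B at 2 and RAB17, RAB23 and RAB44 at 0.

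**Figure D2:**
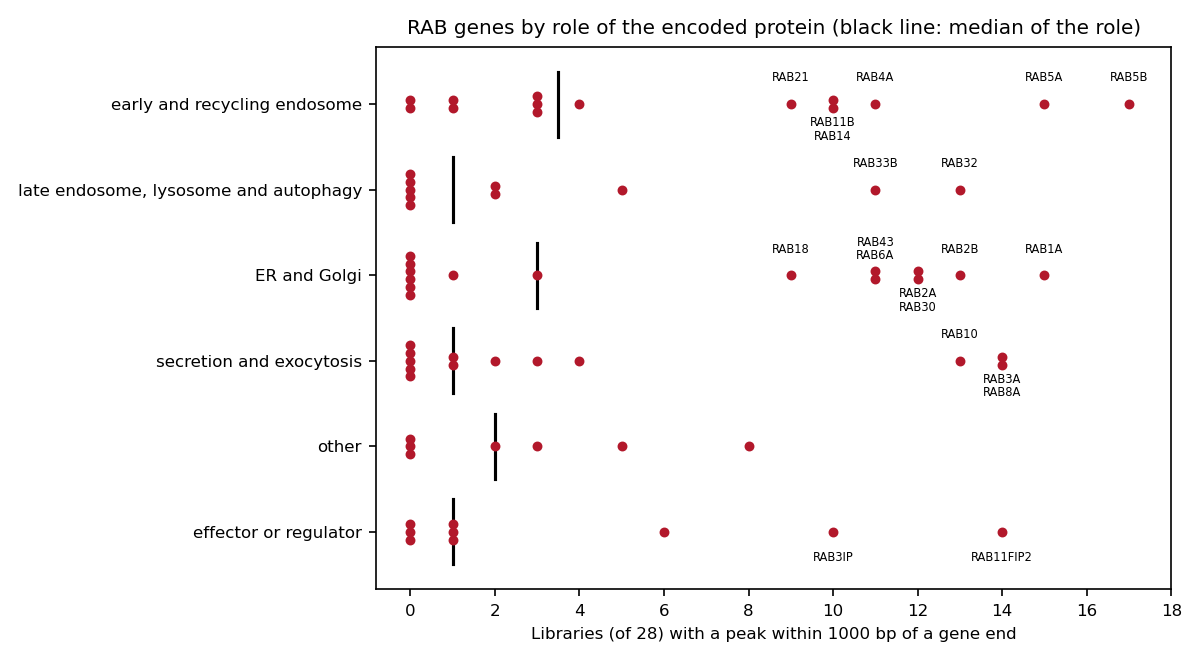
Number of libraries, of 28, with a peak within 1000 bp of a gene end (horizontal axis), for each RAB gene (point), in rows by the role of its protein, with the median of each row as a black line and the names of genes in 9 or more libraries. Endosomal genes have a median of 3.5 libraries and ER and Golgi genes of 3, against 1 for the late endosome, secretion and partner rows, and most rows hold a separate cluster at 9 libraries or more.

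Close relatives differed widely in how often they were listed. Of 14 families of 2 or more RAB genes that share a number, 9 had a member in 10 or more libraries, and in 7 of these another member was in 3 or fewer: RAB1 (RAB1A 15, RAB1B 1), RAB3 (RAB3A 14, RAB3D 1, RAB3B and RAB3C 0), RAB4 (RAB4A 11, RAB4B 3), RAB5 (RAB5B 17, RAB5A 15, RAB5C 3), RAB6 (RAB6A 11, RAB6B 0), RAB11 (RAB11B 10, RAB11A 3) and RAB33 (RAB33B 11, RAB33A 3). RAB8 had 14 libraries for RAB8A and 4 for RAB8B. RAB2 was the only family with every member in 10 or more. The RAB27 and RAB39 families had no listed member. Only 38.2% of RAB genes and 28.2% of all genes were in 4 or more libraries, so a second member in 3 or fewer is common. Whether relatives differ more than other pairs of genes was not tested. The sources used here do not say how reads that fit several places in the genome were treated.

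Each of the 44 listed RAB genes had peaks at only 1 of its ends. In 19 it was the lower-coordinate end and in 25 the higher. Of 8473 listed genes longer than 2000 bp, 440 (5.19%) had peaks at both ends. The 310 peaks at RAB ends had their centres at a median of 160.5 bp from the annotated end, against 146 bp for all gene-end peaks, and 92.3% of them lay within 500 bp, against 87.4%. In each of the 18 most recurrent genes the peaks of different libraries fell on 1 place. The SD of the peak centres was 41.7 bp at RAB2B, 50.2 bp at RAB8A and 64.8 bp at RAB2A, and at most 214 bp, at RAB11B. By its median, the centre lay outside the gene, written as a negative distance, in 10 of the 18 and inside it in 8. The farthest outside were RAB1A (−429 bp), RAB11FIP2 (−284 bp) and RAB8A (−265.5 bp), and the farthest inside RAB3IP (549.5 bp), RAB11B (454.5 bp) and RAB33B (413 bp). RAB20 differed from these, with peak centres that spread by an SD of 379 bp over its 3 libraries.

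**Figure D3:**
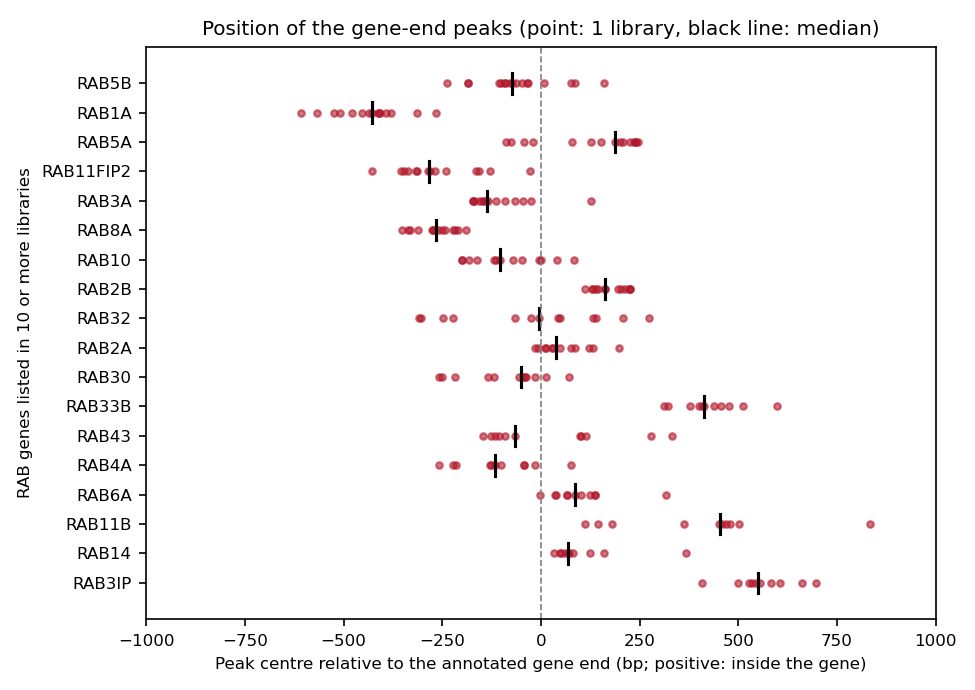
Distance of each peak centre from the annotated gene end in bp (horizontal axis, positive inside the gene) for the 18 RAB genes in 10 or more libraries, with 1 point per library and the median as a black line. Points of a gene cluster together, with medians from −429 bp at RAB1A to 549.5 bp at RAB3IP.

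Some of these places are shared with a neighbour. Another annotated gene end lay within 1000 bp of the median peak centre in 11 of the 44 listed genes and was nearer than the gene's own end in 6. Among the 18 most recurrent genes, 4 had another end within 1000 bp and in 3 of them, RAB2B, RAB33B and RAB4A, it was the nearer. The peak at RAB2B lay 118 bp from an end of TOX4, and the peaks at RAB4A (37 bp), RAB33B (119 bp) and RAB30 (123 bp) lay near ends of unnamed noncoding genes. At RAB5B the next gene end was that of CDK2, at 1089 bp. The places at RAB1A, RAB32, RAB10, RAB14, RAB6A, RAB2A, RAB3IP and RAB11FIP2 had no other gene end within 20 kb, the nearest of them being 22040 bp away at RAB10 and 22514 bp at RAB6A. A peak near 2 gene ends cannot be assigned to 1 of them from these lists.

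Ranked against all peaks of their list, at gene ends or not, peaks at RAB ends were mostly among the stronger ones. No such rank was taken for other gene-end peaks, so it is not shown to be particular to RAB genes. The −log10 p of all 310 ran from 3.15 to 10.2, with a median of 4.62, and their median percentile within their own library was 70.8. It was 93.6 at RAB5B, 93.3 at RAB8A and 93.0 at RAB1A, against 22.6 at RAB11A and 16 at RAB35. In 16 libraries with at least 5 RAB end peaks, the median −log10 p of RAB peaks was above that of other gene-end peaks in 11. The medians were equal in high fat 200 replicates 3 and 4 and low fat 200 replicate 3. RAB peaks had the lower median in high fat 200 replicate 5 and low fat 600 replicate 4. The median width of RAB peaks was above that of other gene-end peaks in 12 of the 16. The values are the authors' own and also carry the unknown depth of each library.

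**Figure D4:**
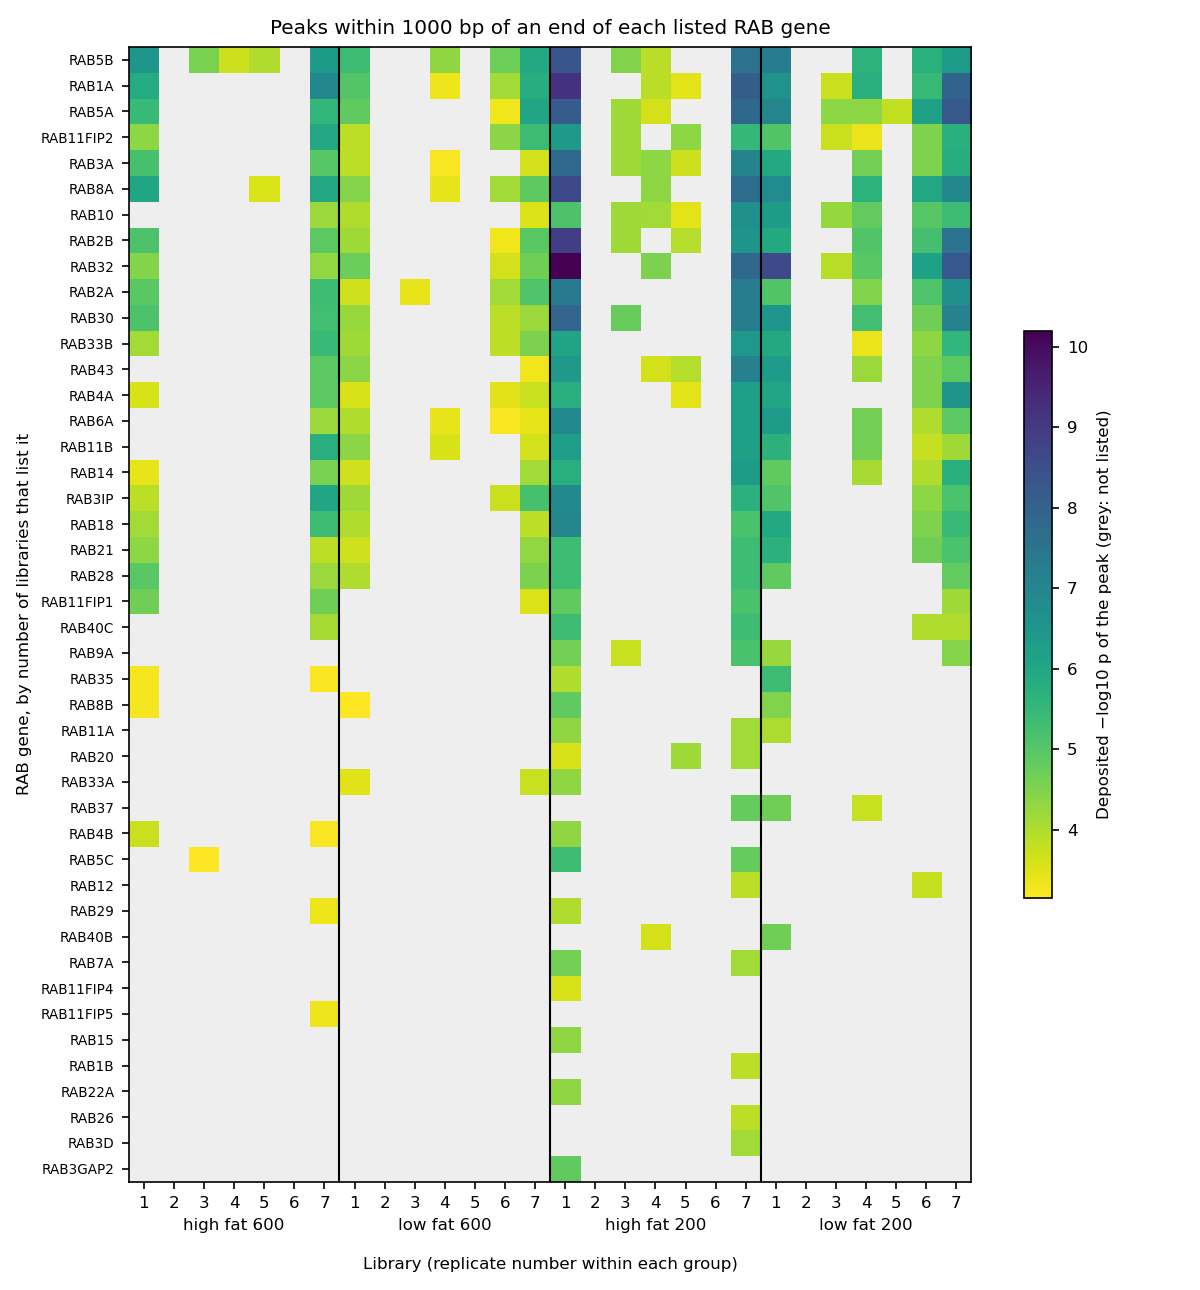
Deposited −log10 p of the gene-end peak (colour scale) for each of the 44 listed RAB genes (rows, by number of libraries) in each of the 28 libraries (columns, by replicate number within high fat 600, low fat 600, high fat 200 and low fat 200), with grey where the gene was not listed. The columns of replicates 1 and 7 are filled most in every group, and 7 columns hold no RAB gene.

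Peaks also lay inside RAB genes, away from their ends. RAB27B, with no gene-end peak, had 4 places inside the gene. One on chromosome 1 between 104352233 and 104353228, 65942 bp from the nearest gene end, was listed in 7 libraries, 2 of high fat 600, 1 of low fat 600, 2 of high fat 200 and 2 of low fat 200, with −log10 p from 3.53 to 5.92. The others were listed in 4, 3 and 1 libraries. In RAB7A, a place 34242 bp inside the gene on chromosome 13 (71851879 to 71853221) was listed in 6 libraries, 2 of high fat 600, 1 of low fat 600, 2 of high fat 200 and 1 of low fat 200, against the 2 libraries with a peak at its end. Of the 24 RAB genes with no gene-end peak, 8 had a peak inside the gene in at least 1 library and 16 had none at an end or inside.

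The number of RAB genes in a list varied as much within groups as the lists did. High fat 600 libraries listed 21, 0, 2, 1, 2, 0 and 27 RAB genes in replicates 1 to 7, and low fat 600 libraries 23, 0, 1, 6, 0, 13 and 23. High fat 200 libraries listed 37, 0, 8, 9, 8, 0 and 33, and low fat 200 libraries 27, 0, 5, 17, 1, 22 and 24. Replicates 1 and 7 had the most in each group, and the groups overlapped throughout. The means were 7.57 ± 11.4 RAB genes in high fat 600 and 9.43 ± 10.3 in low fat 600 (SD, n = 7 each). They were 13.6 ± 15.2 in high fat 200 and 13.7 ± 11.5 in low fat 200 (SD, n = 7 each). The SDs exceeded or came close to the means, so the group means lay well within the spread between libraries.

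The RAB share was above that of all genes in 20 libraries, below it in 6 and equal to it in 2. The 7 libraries that listed no RAB gene had at most 320 peaks. Long lists held many of the listings, 156 of 310 in the 6 libraries with at least 6288 peaks. The same count was not taken for all genes, so it is not shown to be particular to RAB genes. Lists of similar length differed: high fat 200 replicate 3 listed 8 RAB genes among 6288 peaks, of which 21.4% lay at gene ends, while low fat 200 replicate 6 listed 22 among 4208 peaks, of which 57.6% did. Within the 1000 strongest peaks, the RAB share was above the share of all genes in each of the 15 libraries with 1000 or more peaks, between 2.94% and 17.6% of RAB genes against 1.82% to 5.71% of all genes.

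**Figure D5:**
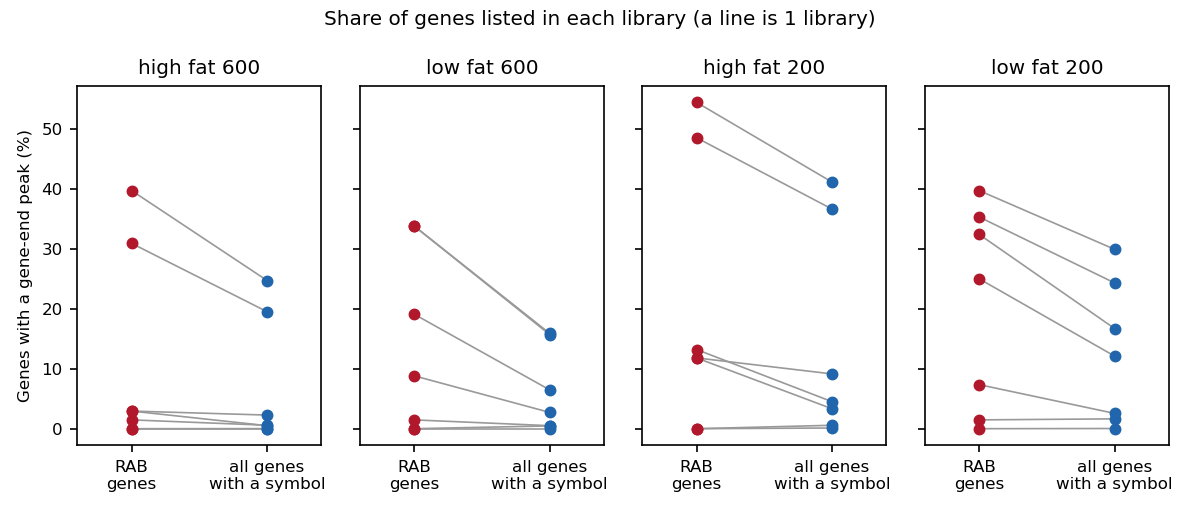
Percent of genes with a gene-end peak in each library (vertical axis), for RAB genes (red, left) and all genes with a symbol (blue, right), with 1 line per library and a panel for each group. Lines slope down from RAB genes to all genes in 20 of 28 libraries, and within each group the libraries range from 0% of RAB genes to between 33.8% and 54.4%.

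The study's title names fat content as its question. High and low fat libraries were compared gene by gene with Fisher's exact test, two-sided, over all genes listed in at least 3 libraries, and p-values were adjusted after Benjamini and Hochberg, with calls below 0.05. No gene, RAB or other, passed. In the 600 libraries 0 of 2588 genes passed (0%), and 0 were below an unadjusted p of 0.05; 22 of these genes were RAB genes. In the 200 libraries 0 of 4948 passed (0%), also with 0 below an unadjusted p of 0.05, and 27 were RAB genes. With each title number counted once, in either of its libraries, 0 of 5186 passed (0%), 0 were below an unadjusted p of 0.05, and 30 were RAB genes. The design is small: 7 libraries against 7 cannot give a p below 0.000583, and at that p 31, 58 and 61 genes would be needed for a call in the 600, the 200 and the combined comparison.

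RAB6A had the smallest p of the family in the 600 libraries. It was listed in 1 high fat library (−log10 p 4.20) and in 4 low fat libraries (4.00, 3.41, 3.21 and 3.42), an exact p of 0.266 and an adjusted p of 1.0. The 200 libraries showed 2 of high fat and 4 of low fat for the same gene. In the 600 libraries RAB11B (1 high fat, 3 low fat) followed, with an exact p of 0.559. RAB1A and RAB2A (each 2 high fat, 4 low fat) had 0.592, and every other RAB gene tested had a p of 1.0. In the 200 libraries the smallest p was that of RAB20, a GTPase of phagosome maturation. It was listed in high fat replicates 1, 5 and 7 (−log10 p 3.59, 4.15 and 4.12) and in 0 low fat libraries, an exact p of 0.192. RAB5A was next, with 4 high fat and 6 low fat libraries (exact p 0.559). RAB11B, RAB14, RAB2A, RAB33B, RAB6A (each 2 high fat, 4 low fat) and RAB32 (3 high fat, 5 low fat) had an exact p of 0.592.

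By title number, RAB5C and RAB20 were listed for 3 of high fat and 0 of low fat (exact p 0.192 each), and RAB2A for 2 of high fat and 5 of low fat (exact p 0.286). RAB5A (4 of high fat, 6 of low fat) had an exact p of 0.559, and RAB11B, RAB14, RAB33B, RAB6A (each 2 of high fat, 4 of low fat) and RAB32 (3 of high fat, 5 of low fat) had 0.592. RAB5C, a RAB5 GTPase of early endosomes, came from high fat 200 replicates 1 and 7 and high fat 600 replicate 3. The adjusted p was 1.0 for every RAB gene tested in each of these comparisons. In the 600 libraries 16 RAB genes (72.7%) were listed in fewer high fat than low fat libraries and 2 (9.09%) in more, against 40.6% and 24% of all tested genes. In the 200 libraries it was 15 (55.6%) in fewer and 5 (18.5%) in more, against 44.4% and 27.4%. With each title number counted once it was 15 of 30 in fewer and 8 (26.7%) in more, near the 43.7% and 27% of all genes. The median difference of RAB genes was −14.3 percentage points in each label, or 1 library of 7, against 0 for all genes. In the 600 set, RAB2B, RAB30, RAB32, RAB33B, RAB3IP, RAB4A, RAB5A and RAB11FIP2 were listed in replicates 1 and 7 of both groups. Low fat replicate 6 was their only other 600 library. None of the RAB genes passed the test, and genes of 1 library are not independent of each other.

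The 600 libraries listed RAB genes 119 times and the 200 libraries 191 times, against 14572 and 29803 listings of all genes. Of the RAB listings in a 600 library, 91.6% (109) were also found in the 200 library with the same title number, against 89.7% for all genes. Those 109 made up 57.1% of the RAB listings of the 200 libraries, against 43.9% for all genes. Fisher's exact test over 5454 genes and 14 against 14 libraries gave 0 calls (0%) at the adjusted threshold. It gave 225 genes (4.13%) with an unadjusted p below 0.05, 2 of them among the 32 RAB genes tested. This test ignores the shared title numbers. An exact sign test on the pairs of a title number gave 100 of the 5454 genes with an unadjusted p below 0.05. It gave 0 calls at the adjusted threshold. RAB10 (p 0.0156, adjusted p 0.566) was the only one of the 32 RAB genes among the 100. RAB9A had a p of 0.0625 (adjusted p 0.566). RAB genes were listed in fewer 600 than 200 libraries in 22 cases (68.8%) and in more in 3 (9.38%), against 84.1% and 6.14% of all genes. The median difference was −10.7 percentage points for RAB genes and −14.3 for all genes. The 600 lists were shorter in general, and the part of list length in these differences was not tested.

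RAB10 was listed in 3 of 14 libraries of the 600 set and in 10 of 14 of the 200 set, an exact p of 0.0213 and an adjusted p of 0.832. Its 600 libraries were high fat replicate 7 (−log10 p 4.20) and low fat replicates 1 and 7 (4.00 and 3.53). Its 200 libraries were high fat replicates 1, 3, 4, 5 and 7 (5.13, 4.15, 4.12, 3.43 and 6.65) and low fat replicates 1, 3, 4, 6 and 7 (6.29, 4.26, 4.85, 4.97 and 5.36). RAB9A was listed in 0 of the 600 and 5 of the 200 libraries, an exact p of 0.0407 and an adjusted p of 0.832. Those were high fat 200 replicates 1, 3 and 7 (4.62, 3.74 and 5.18) and low fat 200 replicates 1 and 7 (4.25 and 4.44). RAB43 followed with 3 of the 600 and 8 of the 200 libraries (exact p 0.120), RAB5A with 5 and 10 (exact p 0.128) and RAB11A, RAB20 and RAB37 with 0 and 3 (exact p 0.222 each). RAB5B ran the other way, with 9 of the 600 and 8 of the 200 libraries.

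The difference of the fat effect between the labels was tested on the 600 minus 200 listing of each title number, with the fat groups exchanged in every possible way (exact permutation test, two-sided). Of 5454 genes, 0 passed the adjusted threshold (0%) and 4 (0.0733%) had an unadjusted p below 0.05, none of them a RAB gene. RAB20 had the smallest p of the family (0.192), followed by RAB33A (0.269), RAB14 (0.462), RAB35 (0.538) and RAB3A (0.559). RAB33A was listed in 0 high fat and 2 low fat libraries of the 600 set, and in 1 high fat and 0 low fat libraries of the 200 set. The adjusted p was 1.0 for each.

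Of 119 other genes of the RAB cycle, 78 (65.5%) were listed in at least 1 library and 13 (10.9%) in 10 or more, with a median of 1 library. All genes with a symbol had 52.9%, 8.98% and a median of 1, and the RAB genes 64.7%, 26.5% and a median of 2. Prenylation and GDP dissociation genes, which put RAB proteins on membranes and take them off, had 6 of 8 listed and none in more than 7 libraries. Exchange factors had 23 of 30 listed, and 5 recurred in 10 or more: DENND4A (14), MON1B (13), which activates RAB7 with CCZ1, RIC1 (12), which activates RAB6 with RGP1, DENND5B (11) and DENND4C (10). GTPase activating proteins had 25 of 34 listed, with TBC1D5 (14), EVI5L and RABGAP1L (11 each) and TBC1D2 and TBC1D23 (10 each) in 10 or more. Effectors had 24 of 47 listed (51.1%). EEA1, the early endosome tether that binds RAB5, was listed in 17 libraries, the number that RAB5B had. BICD2, an adaptor that links RAB6 vesicles to dynein, was listed in 12, and APPL1, a RAB5 effector, in 11. Of the 119 genes, 49 were in at least 3 libraries and could be tested. None of the 49 passed the adjusted threshold in any of the 5 tests, and 3 had an unadjusted p below 0.05 in at least 1. Over all genes, Fisher's exact test of 600 against 200 libraries alone put 225 of 5454 (4.13%) below that unadjusted p.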

How the data were processed

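ATAC-seq peak lists of 28 pig liver libraries were used. The build was Sscrofa11.1, and the tools were Genrich, Picard, SAMtools, BWA and FastQC, per the submitters' processing notes, with roles and versions not given in the sources used here. Per the file headers, each deposited peak has a library, a position, a p-value, a score and a signal. The deposited p-value column holds −log10 p (lowest value 2.83). The deposited signal, the area of a peak, was at least 400, and the deposited score followed from signal and width. These are the authors' values per peak. Only −log10 p was used, to describe and rank peaks.

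Peaks were matched to the ends of RefSeq genes by their centre, within 1000 bp. Groups came from the labels. Genes listed in at least 3 libraries of a comparison entered Fisher's exact test, or an exact permutation test for the difference of the fat effect, with Benjamini-Hochberg adjustment over all of them. The tests were tried on simulated lists. Alternatives were the window, the way a peak is matched, stronger peaks, longer lists, libraries left out and a replicate block. Counting and plotting used Python 3.11.15 with scipy 1.17.1, pandas 2.3.3, matplotlib 3.10.9 and numpy 2.4.6.

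The members, the roles and the lists of partner and marker genes were chosen with earlier results of these data known. All 68 members are accounted for. Positions and −log10 p are given for members in 10 or more libraries and values for the 5 of smallest p in each test; members tied with the last are named too unless p is 1. Of 122 genes of the RAB cycle, 119 matched a symbol. Depth is unknown, so no interval or detection limit is given, and an unlisted site can be closed, thinly sequenced or removed before deposit. Protein and promoter sequences were not analysed here.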

Additional observations from a re-analysis of the deposited data

How the results depend on the processing

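Of 105 alternatives of the 5 tests, 1 gave a call: with a window of 2500 bp, 2 genes passed in the comparison of 600 with 200 libraries, neither a RAB gene. The replicate block, by title number or by replicate number, gave 0 calls in each test. Between 600 and 200 libraries it gave 100 of 5454 genes with an unadjusted p below 0.05. Deviations of the 600 and the 200 library of a title number correlated by more than 0.1 in 7 of 14 pairs, over 5454 genes, and those of the high and low fat library of a replicate number in 6 of 7 pairs in the 600 and 2 of 7 in the 200 libraries, so pairing was not established. The counts by title number and the difference of the fat effect assume it. Of 490 values of named members under the alternatives, 7 were at 0, 5 of them with peaks at or above the median strength of their label, and 1 reversed: with those peaks, the difference of the fat effect at RAB3A was 42.9 percentage points (exact p = 0.266), against −28.6 with all peaks. The cause was not tested. Named members in too few libraries under an alternative, such as RAB20 with a window of 500 bp, have no value there. The share of RAB genes in at least 1 library was 47.1% with at least 3 libraries required, 30.9% with the 1000 strongest peaks and 51.4% over genes with no other gene end within 2000 bp. The share in 10 or more libraries was 13.2% with peaks at or above the median strength (3.80% of all genes) and 8.82% with the 1000 strongest peaks, where 15 libraries are counted. Leaving out the libraries of 1 title number gave between 58.8% and 64.7% for the first share and between 16.2% and 26.5% for the second. The share in 10 or more libraries and the last alternatives of each share were added after seeing the data. Libraries with few peaks, down to 39, limit what any comparison of listing can show.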
